A study of Mus musculus with 6 samples.

Results

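The photoreceptor ribbon synapse genes examined here were 10 genes of the deposited table of read counts, taken by symbol: Ctbp2, Bsn, Pclo, Rims2, Cacna1f, Cacna2d4, Cabp4, Unc119, Slc17a7 and Egflam. They are 10 of 24062 genes in the table, and all 10 were among the 16904 genes tested. Whole retinae of mice at P21, labelled C57BL/6 and kept on C57BL/6N according to the methods, were profiled by mRNA sequencing, 3 from Rb1/p107/Hells TKO and 3 from Rb1/p107 DKO animals. Both genotypes carried Chx10-Cre, floxed Rb1 and a germline p107 null allele, and the TKO retinae carried floxed Hells in addition. Chx10-Cre acts in retinal progenitors in a mosaic pattern, so every retina also held cells that had not recombined, and no retina with intact Rb1 and p107 was part of this comparison. The comparison asked how the synapse genes of photoreceptors differed when Hells, a chromatin remodeler of the SNF2 family, was removed from the Rb1/p107-deficient retina.

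Rods and cones signal through a ribbon synapse, in which a plate of RIBEYE tethers glutamate-filled vesicles above a row of L-type calcium channels and sustains release in darkness. The dendrites of bipolar and horizontal cells enter a pocket beneath the ribbon, where matrix proteins such as pikachurin align them with the release site. Bipolar cells also build ribbons and share several of these components, so the genes do not mark photoreceptors alone.

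Promoter sequences are shown because 9 of the members were higher in the same 3 retinae. RefSeq windows on GRCm38.p6, from 250 bases before to 50 bases after a transcript start, were held for 7 of the 10 members in 11 windows (Bsn, Cacna1f, Ctbp2, Egflam, Pclo, Slc17a7 and Unc119), while Rims2, Cacna2d4 and Cabp4 had no entry. Both strands were searched for TAATCC, the element that the photoreceptor homeodomain factor CRX recognises. It was present in 2 of the 11 windows, at an internal start of Ctbp2 and at an internal start of Unc119, and in 7.06% of the 32851 windows of all genes. Both windows are printed below from 5′ to 3′ on the strand of the gene, with the element in capitals, which reads GGATTA because it lies on the other strand. The Ctbp2 window covers chr7:133015198-133015497 on the minus strand and the Unc119 window covers chr11:78345334-78345633 on the plus strand.
Ctbp2: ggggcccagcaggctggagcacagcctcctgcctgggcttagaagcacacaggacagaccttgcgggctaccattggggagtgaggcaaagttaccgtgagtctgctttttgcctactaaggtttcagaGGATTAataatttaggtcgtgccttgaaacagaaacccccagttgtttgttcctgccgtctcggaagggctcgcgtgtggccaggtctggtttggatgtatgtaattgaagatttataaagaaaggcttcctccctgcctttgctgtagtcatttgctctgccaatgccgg
Unc119: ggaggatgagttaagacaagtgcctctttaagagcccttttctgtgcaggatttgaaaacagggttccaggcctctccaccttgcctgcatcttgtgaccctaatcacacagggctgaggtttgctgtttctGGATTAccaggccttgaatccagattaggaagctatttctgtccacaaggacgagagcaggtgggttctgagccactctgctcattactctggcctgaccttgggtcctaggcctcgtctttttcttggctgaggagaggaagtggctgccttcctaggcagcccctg
The element began 121 bases before the start in Ctbp2 (position -121) and 118 bases before it in Unc119 (position -118). The Ctbp2 start lies at position 133015247, 1 base from the start of the annotated transcript Ctbp2-214, which codes for 988 residues, whereas Ctbp2-201 starts far upstream and codes for 445 residues. RIBEYE is the long product of Ctbp2, made from such an internal start, and CtBP2 itself, a nuclear corepressor, is the short product. The element TGCTGAC, recognised by the rod factor NRL, was in 0 of the 11 windows and in 4.67% of all windows. The E2F-type letters TTTGGCGC and TTTCGCGC were in 0 of the 11 windows and in 0.813% of all windows. No other motif searched was found in these windows, so none overlapped TAATCC. A match describes letters in a window, and no match says only that these letters are not in it.

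The libraries held between 10343907 and 14203098 counts. Hells stood at 60.8, 68.4 and 83.4 normalized counts across TKO replicates 1, 2 and 3. In DKO replicates 1, 2 and 3 it stood at 678, 523 and 395, a log2 fold change of -2.91 ± 0.225 (SE, edgeR adjusted p = 0.00359). The direction followed the label in each library. Counts on the whole gene do not show removal of the floxed exon, and the dividing cell markers below were lower by a similar size. The level of Hells is therefore no check of the deletion itself. Here a normalized count is a count divided by the TMM-scaled size of its library relative to the mean size. Rod markers were detected in every library, and 10 of 10 were higher in TKO, with log2 fold changes from 1.58 to 2.08. Their summed level was 57593, 49174 and 28561 CPM (counts scaled to a common library total) in TKO replicates 1 to 3 and 10132, 9723 and 18473 in DKO replicates 1 to 3. Of the dividing cell markers, 7 of 7 were lower in TKO (median log2 fold change -2.68). The lens markers summed to 48.5, 270 and 39 CPM in TKO and to between 5.81 and 6.62 in DKO retinae, and 4 of 7 were higher. Of the microglia markers 4 of 6 were lower, of the Muller glia markers 2 of 6 were higher and 2 lower, and of the RPE markers 1 of 5 was higher, while none of the amacrine (8), horizontal (5) or ganglion cell markers (7) passed. No marker was at 0 in all libraries, and the part of other cell types in the results was not tested. Because whole retinae were sequenced, fewer cells of a type and less RNA per cell cannot be told apart in any value that follows.

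Of the 10 ribbon synapse genes, 9 were higher in TKO than in DKO retinae (edgeR quasi-likelihood test, p adjusted over all genes tested, up to 0.05), and Bsn did not pass the test. Among all genes tested, 7.35% were higher at that threshold. By the study's criteria, which add a minimum log2 fold change of 1 and a minimum mean of 10 normalized counts, 5 members were higher (Cacna1f, Cabp4, Unc119, Slc17a7 and Egflam), against 1.97% of all genes. No member was lower (0 also at an unadjusted p under 0.05 and in DESeq2), where 9.20% of all genes were. The median log2 fold change of the members was 1.10 and that of all genes tested was -0.01. The 3 TKO values lay above all 3 DKO values in 9 of the 10 genes, and 18.0% of all genes tested showed groups separated in this direction. The members together took 0.546%, 0.482% and 0.369% of all counts in TKO replicates 1, 2 and 3, and 0.209%, 0.205% and 0.306% across DKO replicates 1, 2 and 3.

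**Figure D1:**
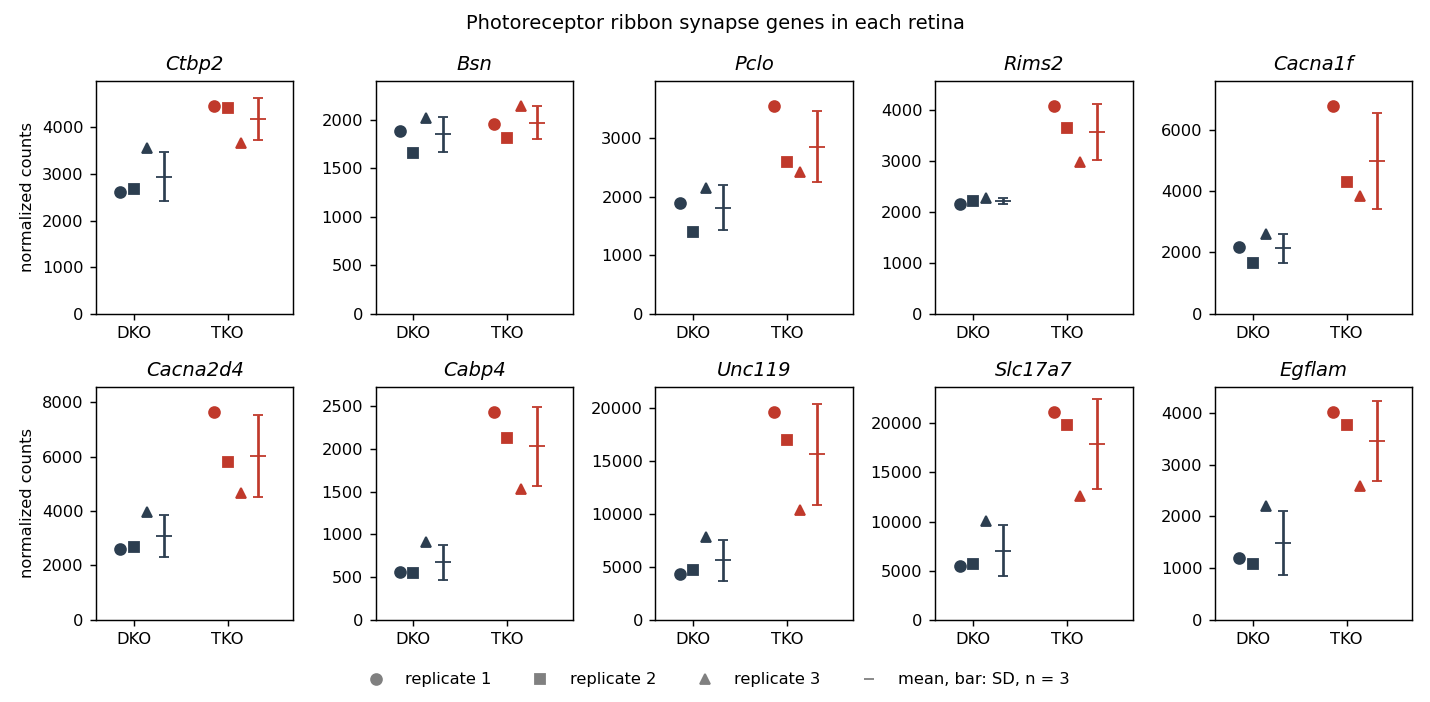
Normalized counts (y axis, from 0) of the 10 ribbon synapse genes in each DKO and TKO retina, with replicates as circles, squares and triangles and the mean with SD (n = 3) beside them. The TKO retinae lie above all DKO retinae in 9 panels, and the groups overlap for Bsn. TKO replicate 3 is the lowest TKO retina in 9 panels and DKO replicate 3 the highest DKO retina in all 10.

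The genes of the ribbon and active zone had the 4 smallest log2 fold changes of the members. Ctbp2 (chr7:132987563-133124354) stood at 4460, 4426 and 3656 normalized counts across TKO replicates 1, 2 and 3 and 2604, 2677 and 3550 across DKO replicates 1, 2 and 3. TKO replicate 3 and DKO replicate 3 were close, with a ratio of 1.03 between the lowest TKO and the highest DKO value, and the groups did not overlap. The means were 4180 ± 455 and 2944 ± 526 (SD, n = 3 each), with a log2 fold change of 0.51 ± 0.14 (SE, edgeR adjusted p = 0.0427). Counts on the whole gene do not separate RIBEYE from CtBP2, and the gene overlaps Fgfr2 in the annotation.

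Bsn (chr9:108096022-108190384) encodes bassoon, the large scaffold that anchors the ribbon to the presynaptic membrane. It stood at 1959, 1806 and 2141 normalized counts across TKO replicates 1, 2 and 3. In DKO replicates 1, 2 and 3 the values were 1878, 1654 and 2012. The groups overlapped, and the difference was smaller than the spread between replicates, with means of 1969 ± 168 and 1848 ± 181 (SD, n = 3 each). Its log2 fold change was 0.09 ± 0.101 (SE, edgeR adjusted p = 0.567), and the sign turned to -0.06 when libraries were scaled by total counts alone, a scaling that moved the median of all genes to -0.17. Relative to that median, the value of Bsn was 0.11.

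Pclo (chr5:14514918-14863459) encodes piccolo, a scaffold related to bassoon, whose short ribbon variant shares the gene and was not separated here. Its normalized counts were 3555, 2600 and 2422 in TKO replicates 1 to 3 and 1889, 1403 and 2152 in DKO replicates 1 to 3. TKO replicate 1 stood above the other TKO retinae, and the lowest TKO value exceeded the highest DKO value by a ratio of 1.13. The means of 2859 ± 609 and 1815 ± 380 (SD, n = 3 each) gave a log2 fold change of 0.66 ± 0.186 (SE, edgeR adjusted p = 0.0466).

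Rims2 (chr15:39198261-39684372) encodes RIM2, an active zone protein that binds calcium channels and vesicle-bound Rab3. Its normalized counts were 4073, 3643 and 2977 in TKO replicates 1, 2 and 3. The DKO retinae gave 2160, 2208 and 2260, the tightest group of any member, with a highest value 1.05 times the lowest. The groups did not overlap, and the means of 3564 ± 552 and 2209 ± 49.8 (SD, n = 3 each) differed by a log2 fold change of 0.69 ± 0.116 (SE, edgeR adjusted p = 0.0094).

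In the calcium channel complex, Cacna1f (chrX:7607083-7635196) encodes the pore-forming subunit of the photoreceptor L-type channel. It stood at 6783, 4305 and 3853 normalized counts across TKO replicates 1, 2 and 3, and 2174, 1641 and 2592 across DKO replicates 1, 2 and 3. TKO replicate 1 was far above the other retinae, and the lowest TKO value was still 1.49 times the highest DKO value. The means were 4980 ± 1577 and 2136 ± 477 (SD, n = 3 each), a fold of 2.33 and a log2 fold change of 1.22 ± 0.235 (SE, edgeR adjusted p = 0.0132).

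Because Cacna1f is X-linked, the sex-linked genes were read beside it. Xist stood at 8.03, 13136 and 14151 normalized counts across TKO replicates 1 to 3 and 2.82, 2.63 and 12995 in DKO replicates 1 to 3. Y-linked counts summed to 2764, 0 and 0 in the TKO and to 2847, 2492 and 0 in the DKO retinae, so TKO replicate 1 was set against DKO replicates 1 and 2, and TKO replicates 2 and 3 against DKO replicate 3. Cacna1f was 3.56-fold higher in TKO among the libraries with Y-linked counts and 1.57-fold higher among those without. The same division gave folds from 1.11 (Bsn) to 4.37 (Cabp4) with Y-linked counts and from 0.981 (Bsn) to 2.02 (Cabp4) without them. The 9 genes that passed the test were higher in TKO in both. That direction was fixed in advance, because all TKO values of these genes lay above all their DKO values. Only the size of the folds is therefore informative. These values rest on 1 library on one side of each ratio and have no test.

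Cacna2d4 (chr6:119236526-119352407) encodes the auxiliary α2δ subunit of the same channel. Its normalized counts were 7643, 5798 and 4669 in TKO replicates 1 to 3 and 2595, 2669 and 3956 in DKO replicates 1 to 3. The groups did not overlap, with the replicates numbered 3 closest to each other at a ratio of 1.18. The means of 6037 ± 1501 and 3073 ± 765 (SD, n = 3 each) gave a fold of 1.96 and a log2 fold change of 0.97 ± 0.215 (SE, edgeR adjusted p = 0.0202). The gene overlaps Lrtm2 on the opposite strand, and reads from the pair cannot be told apart if the counting did not use strand.

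Cabp4 (chr19:4135423-4144033) encodes the calcium-binding protein that shifts the channel's activation to the voltages of a photoreceptor. It stood at 2433, 2134 and 1529 normalized counts across TKO replicates 1, 2 and 3 and 560, 554 and 906 across DKO replicates 1, 2 and 3. The lowest TKO value was 1.69 times the highest DKO value, the widest gap of the 10 genes. Cabp4 also had the largest difference of the members, with means of 2032 ± 461 and 673 ± 201 (SD, n = 3 each), a fold of 3.02 and a log2 fold change of 1.59 ± 0.228 (SE, edgeR adjusted p = 0.00706). It overlaps Gpr152 on the opposite strand, with the same limit.

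Unc119 (chr11:78343482-78349164) encodes a lipid-binding trafficking protein that is abundant in photoreceptors and binds CaBP4 at the terminal. Its normalized counts were 19637, 16987 and 10350 in TKO replicates 1 to 3 and 4356, 4680 and 7827 in DKO replicates 1 to 3. TKO replicate 3 and DKO replicate 3 lay nearest to each other, and the groups were separated by a ratio of 1.32. The means were 15658 ± 4784 and 5621 ± 1917 (SD, n = 3 each), a fold of 2.79 and a log2 fold change of 1.48 ± 0.286 (SE, edgeR adjusted p = 0.0134).

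Slc17a7 (chr7:45163949-45176142) encodes VGLUT1, which loads glutamate into synaptic vesicles of photoreceptors and bipolar cells. It stood at 21147, 19877 and 12656 normalized counts across TKO replicates 1, 2 and 3, and 5444, 5643 and 10072 across DKO replicates 1, 2 and 3. All TKO values were above all DKO values, with a ratio of 1.26 at the gap. The means of 17894 ± 4580 and 7053 ± 2616 (SD, n = 3 each) gave a fold of 2.54 and a log2 fold change of 1.34 ± 0.277 (SE, edgeR adjusted p = 0.0162).

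Egflam (chr15:7206120-7398395) encodes pikachurin, the matrix ligand of dystroglycan at the photoreceptor terminal. Its normalized counts were 4014, 3769 and 2583 in TKO replicates 1 to 3 and 1189, 1075 and 2192 in DKO replicates 1 to 3. DKO replicate 3 was 2.04 times DKO replicate 2, the widest spread within a genotype, and the groups did not overlap. The means of 3455 ± 765 and 1485 ± 615 (SD, n = 3 each) differed by a fold of 2.33 and a log2 fold change of 1.22 ± 0.277 (SE, edgeR adjusted p = 0.0222).

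**Figure D2:**
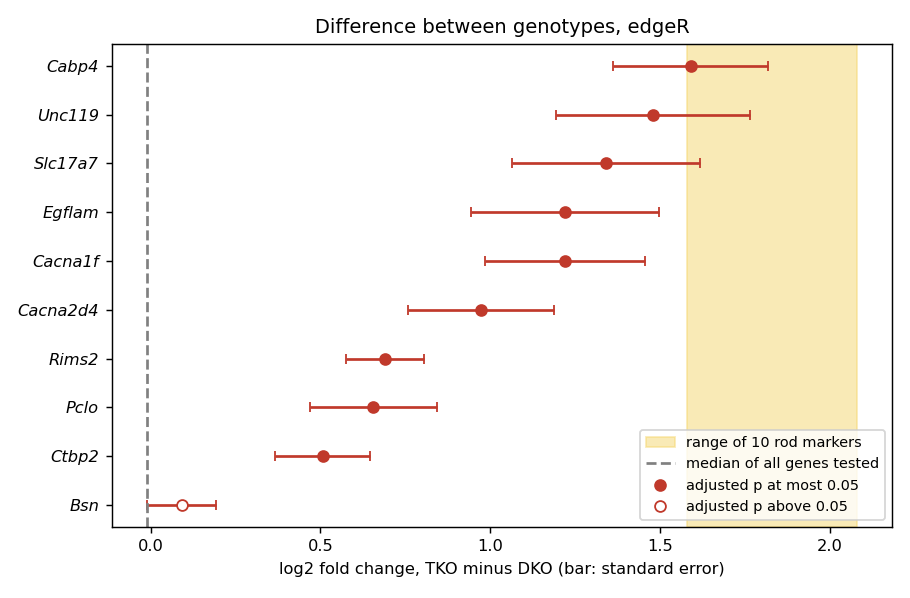
Log2 fold change (x axis, TKO minus DKO, bars are standard errors) of each member from edgeR, with filled points at an adjusted p of at most 0.05. The values run from 0.09 for Bsn to 1.59 for Cabp4. The dashed line is the median of all genes tested (-0.01) and the band is the range of the 10 rod markers (1.58 to 2.08), which only Cabp4 reaches.

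The retinae kept nearly the same order across the members. TKO replicate 1 was the highest TKO retina and TKO replicate 3 the lowest in 9 of 10 genes, with Bsn as the exception, and DKO replicate 3 was the highest DKO retina in all 10. TKO replicate 1 also had the highest summed rod markers and the lowest summed dividing cell markers, and the replicates numbered 3 lay closest to the other genotype in both. The dividing cell markers summed to 37.4, 69.6 and 154 CPM in TKO replicates 1 to 3 and 831, 595 and 380 in DKO replicates 1 to 3. The part of photoreceptor content in these differences was not tested. Calls depended on single retinae, among all genes as among the members. Without DKO replicate 1 or DKO replicate 2 the number of members higher fell from 9 to 2. It fell to 3 without TKO replicate 2 and to 5 without TKO replicate 1, and it was 9 without either of the others. Over all genes tested, 1243 of 16904 were higher with every retina. This became 312 of 16666 without DKO replicate 1 and 214 of 16678 without DKO replicate 2. It was 308 of 16750 without TKO replicate 2 and 541 of 16758 without TKO replicate 1. Without TKO replicate 3 it was 1617 of 16773, and without DKO replicate 3 it was 1483 of 16672. With 1 retina left out in turn, Cabp4 (highest edgeR adjusted p = 0.0392) and Rims2 (0.0481) passed in 6 of 6 fits. Cacna1f passed in 4 fits and was lost without DKO replicate 1 or 2. Unc119 and Slc17a7 passed in 3 fits and were lost without DKO replicate 1, DKO replicate 2 or TKO replicate 2. Ctbp2, Pclo, Cacna2d4 and Egflam passed in 2 fits, those without TKO replicate 3 or DKO replicate 3, and their highest edgeR adjusted p values were 0.153, 0.138, 0.0867 and 0.0879. In these fits the log2 fold change of every member stayed above 0, the smallest being 0.02 for Bsn.

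Levels were compared between genes as CPM per kb of annotated exon. Unc119 was the highest, at 506 ± 154 in TKO against 182 ± 61.9 in DKO (SD, n = 3 each), followed by Slc17a7 at 262 ± 67.2 and 103 ± 38.4. Unc119 exceeded Slc17a7, and Slc17a7 exceeded Ctbp2, in 6 of 6 libraries. A middle group held Ctbp2 (53.1 ± 5.78 in TKO and 37.4 ± 6.69 in DKO), Cacna2d4 (50.4 ± 12.5 and 25.6 ± 6.38), Egflam (44.6 ± 9.88 and 19.2 ± 7.94), Cacna1f (43.3 ± 13.7 and 18.6 ± 4.15) and Cabp4 (45.7 ± 10.4 and 15.1 ± 4.52). Neighbours within this group changed order between libraries, as did Cabp4 and Rims2, and the means of the 5 genes in TKO retinae lay within their spread. Rims2 followed at 27.1 ± 4.2 and 16.8 ± 0.379, above Bsn in 6 of 6 libraries. Bsn (9.77 ± 0.833 and 9.17 ± 0.897) and Pclo (10.1 ± 2.14 and 6.39 ± 1.34), the largest transcripts, were lowest per kb and changed order between libraries. In DKO retinae Cacna1f, Cabp4 and Rims2 lay between 15.1 and 18.6 on average.

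**Figure D3:**
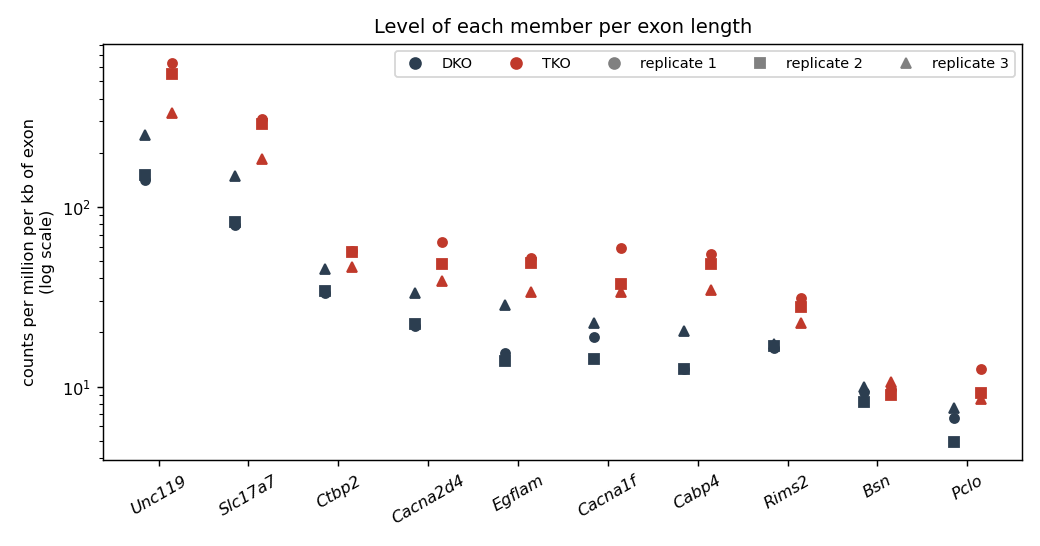
CPM per kb of exon (y axis, log scale) of each member in the 3 DKO and 3 TKO retinae, ordered by mean level. Unc119 and Slc17a7 stand above the other members in every library, and Bsn and Pclo are the lowest.

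Each member was then set against the rods of its own retina, as its log2 CPM minus the mean log2 CPM of the 10 rod markers. The rod mean itself was 11.1 ± 0.493 in TKO against 9.31 ± 0.472 in DKO (SD, n = 3 each), a difference of 1.79. On this scale every member was lower in TKO than in DKO, with a median difference of -0.71. The groups did not overlap for 9 of 10 genes. The direction follows from values already given, as the largest log2 fold change of a member, 1.59 for Cabp4, was below 1.79. A gene equal in both genotypes would be lower by about 1.79 on this scale. The share of all genes that were lower or separated on it was not counted. The values are a description and have no test. Cabp4 differed least (-0.19) and was the member whose groups overlapped, with -3.92, -3.85 and -3.64 in TKO replicates 1 to 3 and -3.59, -3.56 and -3.69 in DKO replicates 1 to 3. Unc119 (-0.32), Slc17a7 (-0.43), Egflam (-0.53) and Cacna1f (-0.59) lay nearer to the rod markers than Cacna2d4 (-0.82). The scaffold and active zone genes differed most, by -1.12 for Rims2, -1.14 for Pclo, -1.28 for Ctbp2 and -1.70 for Bsn. This order largely repeats that of the log2 fold changes, since the same rod difference is taken from every member. For Bsn, whose own log2 fold change was 0.09, the value mostly reflects the rod markers.

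Retinae of a genotype were close on this scale for Unc119 and farther apart for Bsn. Unc119 had -0.91, -0.86 and -0.88 in TKO replicates 1 to 3 and -0.64, -0.48 and -0.58 in DKO replicates 1 to 3, an SD of 0.0252 and 0.0794. Bsn had -4.23, -4.09 and -3.15 in TKO and -1.85, -1.98 and -2.54 in DKO replicates 1 to 3, an SD of 0.588 and 0.367. The replicates numbered 3 again lay closest to the other genotype for Bsn. Without Nrl and Nr2e3 among the rod markers the median difference was -0.70.

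**Figure D4:**
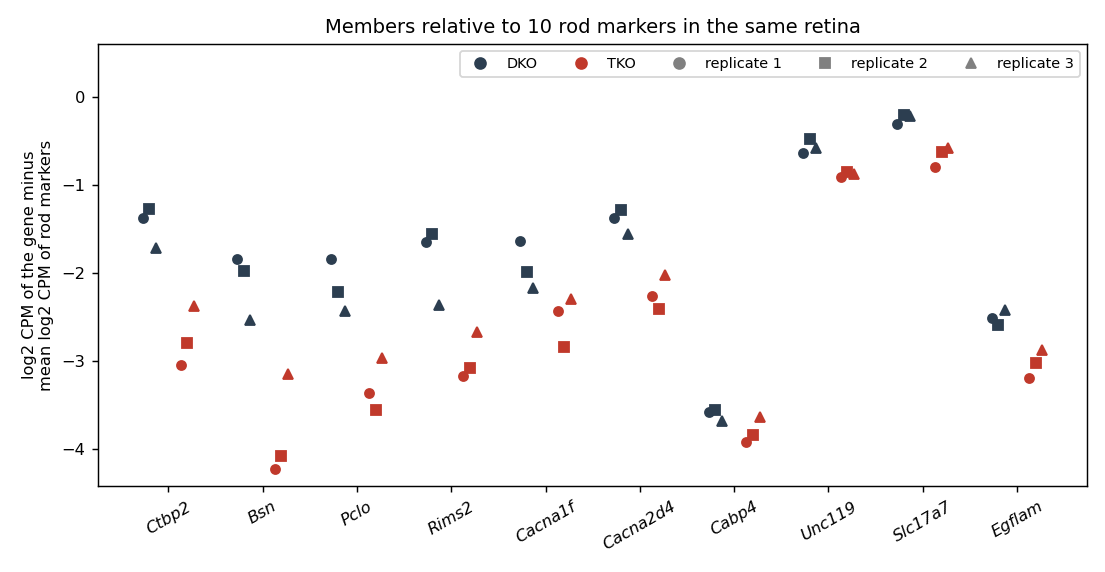
Log2 CPM of each member minus the mean of 10 rod markers in the same retina (y axis), with DKO retinae in dark blue and TKO retinae in red. TKO retinae lie below DKO retinae for 9 members. The gap is widest for Bsn (-1.70) and closest to 0 for Cabp4 (-0.19), whose groups overlap.

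Beyond the members, 87 further synapse genes were counted in 7 lists. In these lists, 21 genes were higher and 3 lower in TKO at an edgeR adjusted p up to 0.05, and 63 did not pass. The share that was higher was 24.1%, beside 7.35% of all genes, with a median log2 fold change of 0.19 over the 87 genes. Of the 24 calls, between 4 (without DKO replicate 2) and 23 (without TKO replicate 3) passed with 1 retina left out, with 6 without DKO replicate 1 or TKO replicate 2 and 12 without TKO replicate 1. In each list the 3 genes with the largest mean count and any opposite to the list's median were named by rule, and the other genes given were chosen after their values were seen.

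In the active zone and calcium channel list, 3 of 16 genes were higher and 1 was lower, with a median log2 fold change of 0.08. Of its 3 most abundant genes, Unc13b, a vesicle-priming protein of ribbon synapses, was higher (3207 ± 707 normalized counts in TKO and 1872 ± 182 in DKO, SD, n = 3 each, log2 fold change 0.78, adjusted p = 0.0142 from edgeR). Tspoap1, a RIM-binding protein, had a log2 fold change of 0.15 (adjusted p = 0.454), with the sign turning to -0.01 under scaling by total counts alone, and Kif3a, the kinesin subunit found on ribbons, had -0.07 (adjusted p = 0.549 from edgeR). The other genes that were higher were Cacnb2, the β subunit of the channel (0.83, adjusted p = 0.0114), and Cabp5, a calcium-binding protein of bipolar cells (0.64, adjusted p = 0.0384 from edgeR). Erc1, an active zone scaffold, was lower, at 902 ± 132 normalized counts in TKO against 1227 ± 33.0 in DKO (SD, n = 3 each, log2 fold change -0.45, adjusted p = 0.0273 from edgeR). It did not pass without DKO replicate 1, DKO replicate 2, TKO replicate 1 or TKO replicate 2 (edgeR adjusted p up to 0.106).

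Among 19 vesicle fusion genes, 5 were higher and 0 lower in edgeR (1 lower at an unadjusted p under 0.05 and 0 in DESeq2), with a median log2 fold change of 0.22. The most abundant ones, the calcium sensor Syt1 (0.23, adjusted p = 0.151), the SNARE Snap25 (0.22, adjusted p = 0.16) and the vesicle protein Syp (0.42, adjusted p = 0.0626 from edgeR), are shared by conventional synapses and did not pass. The 2 largest differences were in genes with a ribbon role. Stx3, the syntaxin of ribbon synapses, averaged 8445 ± 1911 normalized counts in TKO against 3104 ± 523 in DKO (SD, n = 3 each, log2 fold change 1.44, adjusted p = 0.00671 from edgeR). Cplx4, a complexin of photoreceptors, had 4998 ± 1072 and 1896 ± 747 (SD, n = 3 each, log2 fold change 1.40, adjusted p = 0.013 from edgeR). The other complexins of the list, Cplx1, Cplx2 and Cplx3, had log2 fold changes of 0.185, -0.0938 and 0.146 and did not pass in edgeR. The vesicle protein Sv2b (0.71) and the SNARE Vamp1 (0.33) were also higher, and Stx1a, a syntaxin of conventional synapses, had a log2 fold change of -0.31 and did not pass (adjusted p = 0.0507 from edgeR).

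Of 13 vesicle recycling genes, 3 were higher (Ap2a2, Bin1 and Synj1, log2 fold changes 0.62, 0.48 and 0.35) and 0 lower in edgeR, in DESeq2 or at an unadjusted p under 0.05, with a median of 0.19. Its most abundant genes, Dnm1, Pacsin1 and Ap2m1, which act in endocytosis, had log2 fold changes of 0.29, 0.16 and 0.19 and did not pass. Of the 6 other genes for glutamate loading and uptake, none passed in either direction in edgeR (median 0.16), with 3 higher and 0 lower at an unadjusted p under 0.05 and 2 higher in DESeq2. The glutamate transporters Slc1a3, Slc1a2 and Slc1a1 had log2 fold changes of -0.12, 0.50 and -0.15, and Slc1a7, the transporter of photoreceptor and bipolar terminals, had 0.80 (adjusted p = 0.0542 from edgeR). Slc17a6, the vesicular glutamate transporter of ganglion cells, had 0.25 (adjusted p = 0.0821 from edgeR), where the member Slc17a7 had 1.34.

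Of 12 genes of the dystroglycan complex, to which pikachurin binds, and of its glycosylation, 3 were higher, 1 was lower and 8 did not pass, with a median of 0.18. Dmd, whose short product lies at the photoreceptor terminal, averaged 2039 ± 576 normalized counts in TKO against 896 ± 102 in DKO (SD, n = 3 each, log2 fold change 1.19, adjusted p = 0.00821 from edgeR). The syntrophin Sntb2 (1.17, adjusted p = 0.00473) and the mannosyltransferase Pomt2 (0.52, adjusted p = 0.0185 from edgeR) were also higher. Dag1, dystroglycan itself, was lower at 1808 ± 195 against 2259 ± 47.4 normalized counts (SD, n = 3 each, log2 fold change -0.32, adjusted p = 0.0492 from edgeR). Dag1 did not pass when any retina other than TKO replicate 3 was left out (edgeR adjusted p up to 0.153), nor with the Y-linked covariate. Agrn, another matrix ligand of dystroglycan, had a log2 fold change of -0.41 (adjusted p = 0.0957), where the ligand Egflam had 1.22.

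Across the cleft, 4 of 9 trans-synaptic adhesion genes were higher and 1 was lower (median 0.56). The higher ones were Ntng2 (log2 fold change 1.35, adjusted p = 0.0142), Lrit3 (1.18, adjusted p = 0.0225), Elfn1 (0.95, adjusted p = 0.0235) and Lrit1 (0.91, adjusted p = 0.0304 from edgeR), and the last 3 are adhesion proteins of photoreceptor synapses. The neurexins Nrxn2 and Nrxn3 had log2 fold changes of -0.24 and 0.03 and did not pass, and the sign of Nrxn3 turned under scaling by total counts alone or by upper quartiles. In the cascade of ON bipolar cells that receives the signal, 3 of 12 genes were higher (median 0.35) and 0 lower, in DESeq2 and at an unadjusted p under 0.05 as well as in edgeR. Rgs9bp (1.60, adjusted p = 0.00691) and Gnb5 (1.13, adjusted p = 0.0098 from edgeR) also form part of the RGS9 complex of photoreceptor outer segments, and Nyx (0.65, adjusted p = 0.0117 from edgeR) encodes nyctalopin of the bipolar dendrite. The receptor Grm6 and the channel Trpm1 had log2 fold changes of 0.35 and 0.14 and did not pass, and that of Trpm1 turned to -0.03 under total counts alone and to -0.17 without TKO replicate 1. The abundant G protein subunits Gnb3 and Gnao1 had 0.28 and 0.00 and did not pass, with the sign of Gnao1 turning under several settings. Beside this list, 2 of 9 bipolar markers were higher (median 0.35), summing to between 1372 and 1838 CPM in TKO and between 1244 and 1447 in DKO retinae. Of the cone markers, whose cells build the same synapse, 2 of 8 were higher (median 0.90).

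**Figure D5:**
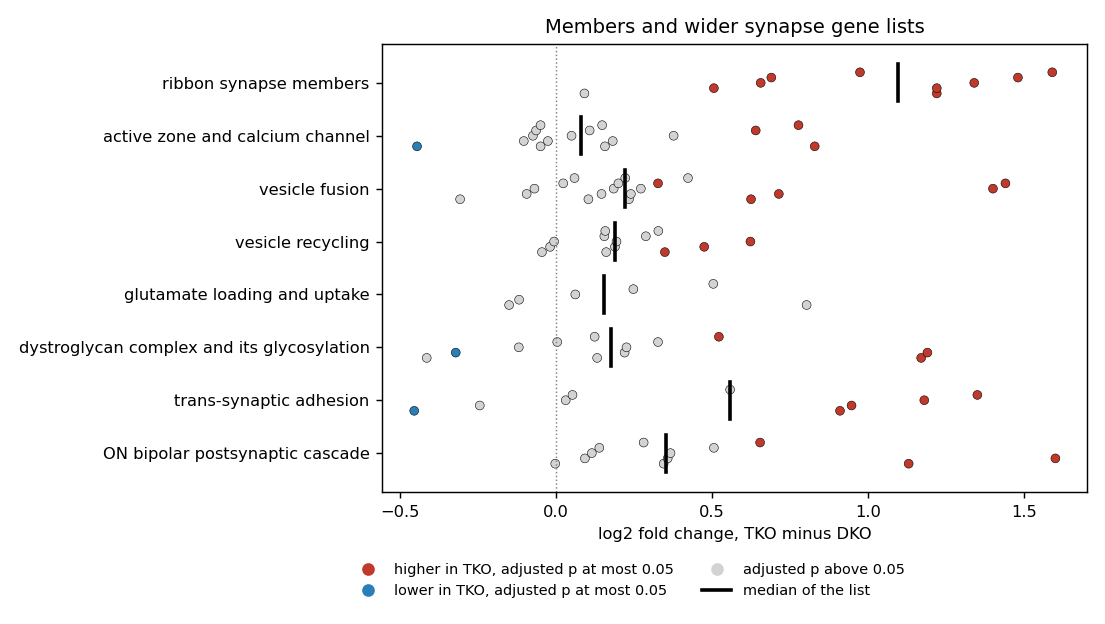
Log2 fold change (x axis, TKO minus DKO) of each gene of the members and of 7 wider synapse lists, with genes higher in red and lower in blue at an edgeR adjusted p up to 0.05, others in grey, and black bars at the medians. The median is 1.10 for the members and lies between 0.08 and 0.56 in the wider lists.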

How the data were processed

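Read counts per gene were used from 3 TKO (Rb1/p107/Hells) and 3 DKO (Rb1/p107) retinae, grouped by the sample labels. The deposited values are raw read counts that the authors made without normalization, 1 column per retina. The paper's methods name STAR and HTSeq on GRCm38, with several alignments allowed per read, whereas the submitters' processing notes list TopHat2, featureCounts and DESeq2. The library kit was stranded, but the strand setting of the counting is not given in the sources used here. Overlapping genes are therefore less certain.

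Genes with a sum under 10 were removed, as in the study, which left 16904 genes. Genotypes were compared with the quasi-likelihood F test of edgeR 4.0.16 (R 4.3.3, TMM factors, genotype as the only term) with Benjamini-Hochberg adjustment over those genes, and the code was tested on simulated data. Standard errors (SE) were derived from the log2 fold change and its F statistic, as the ratio of its size to the root of F. DESeq2 1.42.0, the study's tool, was an alternative. Of 24062 symbols, 22708 matched a GENCODE annotation of GRCm38 (release M21) directly and 914 through a synonym (Tspoap1 is listed as Bzrap1). Positions and exon lengths come from it.

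The members and lists were chosen with earlier results of these data known. Named genes were all members, the 3 most abundant genes of each wider list and genes called against their list's median. Some genes that this rule names are not reported here. Retinae of 1 genotype differed beyond counting noise (chi-square per degree of freedom 8.61 to 25.3 between pairs). The p-values set the difference between genotypes against the spread between these retinae, which edgeR estimates with information shared across genes. With 3 against 3 retinae and library totals of at least 10343907 counts, that spread, and not counting error, limits the precision. Alternatives were other scalings, filters, dispersion estimates and thresholds, a Y-linked covariate, the replicate number as a block and each retina left out.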

Additional observations from a re-analysis of the deposited data

How the results depend on the processing

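DESeq2, size factors by median ratio, upper quartile scaling and 3 other filters gave 9 members higher, 5 by the study's criteria, and a median log2 fold change from 1.06 to 1.10. Robust dispersion estimates gave 7 and 4, a Y-linked covariate 7 and 5, and scaling by total counts alone 7 and 5. That last scaling moved the median of all genes from -0.01 to -0.17 and the split of all calls from 1243 higher and 1556 lower to 778 and 2610. With 1 retina left out, members higher ranged from 2 to 9, members by the study's criteria from 1 to 6, and the median from 0.85 to 1.29. Over all genes, those higher ranged from 214 to 1617 in the same fits, and those by the study's criteria from 121 to 476. The low counts of 2 came without DKO replicate 1 or DKO replicate 2, 3 when TKO replicate 2 and 5 when TKO replicate 1 was left out, and 9 came without TKO replicate 3 or DKO replicate 3. Without both retinae numbered 3, a choice made after seeing the data as were the values within Y-linked groups, 9 members were higher and the median was 1.46. With no minimum fold change the study's criteria gave 9, and with an adjusted p of at most 0.01 they gave 1.

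With the replicate number as a block (replicate block), 0 members passed at either threshold, the median was 1.09, and 24 genes in all were higher. Same-numbered retinae did not deviate together (correlations of 0.05, -0.04 and -0.14), so the number was not taken to pair animals. The median relative to rod markers ranged from -0.81 to -0.63 with 1 retina left out.

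Signs turned for genes near 0: under total counts alone Bsn (-0.0616), Tspoap1 (Bzrap1, -0.0108), Nrxn3 (-0.125) and Trpm1 (-0.0272), under upper quartiles Nrxn3 (-0.00053), and for Gnao1 with DESeq2 (0.0043), median-ratio factors (0.0043) and without both retinae numbered 3 (0.0345). With 1 retina left out, Nrxn3 ranged from -0.0118 to 0.0778, Gnao1 from -0.0502 to 0.0427, and Trpm1 from -0.169 to 0.281. Of the 24 wider genes called, 24 passed with DESeq2, 20 under total counts alone, and between 4 and 23 with 1 retina left out. A group of 2 retinae was then fitted with the spread of both groups.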
